A study of Mus musculus with 12 samples.

Results

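The Crumbs complex and the scaffold proteins around it were followed in mouse retinal explants kept in low or high glucose. The set comprised 10 genes of the 53707 in the deposited gene table, chosen by name and matched by Ensembl identifier. They were the transmembrane proteins Crb1 and Crb2, the membrane-associated guanylate kinases Mpp3, Mpp4 and Mpp5, the multi-PDZ scaffold Patj, the small adaptors Lin7a, Lin7b and Lin7c, and the junction scaffold Tjp1. Explants were whole retinas of wild-type C57BL/6J mice at 28 days of age, dissected 2 hours after the lights came on and freed of the sclera and pigment epithelium. They were held for 48 hours in Neurobasal-A medium with B27 and N2 supplements and either 5 mM or 25 mM glucose, and no other treatment separated the groups analysed here. Each concentration had 3 biological replicates, and each replicate had 2 technical replicates, called libraries here. The first libraries formed batch 1 and the second batch 2, so each batch held both concentrations.

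Crumbs proteins span the membrane of photoreceptors and Müller glia just apical to the adherens junctions that form the outer limiting membrane. Their short intracellular tail binds Mpp5, also called Pals1, which in turn holds Patj and the Lin7 adaptors, and Mpp3 and Mpp4 belong to the same family of scaffolds. The complex sets apical polarity and keeps photoreceptors attached to Müller glia, and mutations of CRB1 cause inherited retinal dystrophies in people.

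The counting depth was 17998905 to 36692484 counts per library at 5 mM and 14815285 to 23129541 at 25 mM, or 43002302 to 60098862 and 37944826 to 42451809 after the libraries of a replicate were summed. Gene levels are given as CPM, the count scaled to a common library total. Some libraries stood apart from their partners: the second library of 5 mM replicate 1 and the first of 25 mM replicate 2 had more Mpp4 and Crb1 than the other library of the same replicate, as did the second library of 25 mM replicate 1. The summed CPM of 7 rod markers (Gnat1, Pde6a, Pde6b, Sag, Nrl, Nr2e3 and Rp1, the last named by the study on these samples) was 1858 to 2262 at 5 mM and 4646 to 7466 at 25 mM. A large part of that rise was Rp1, which went from a mean of 250 to 2708 CPM. For 8 Müller glia markers the summed CPM was 3185 to 4342 and 2054 to 2989, and for 7 markers of vascular endothelium 1126 to 1960 and 425 to 905. Most of the Müller glia fall was Vim, which went from a mean of 1892 to 663 CPM. Of the 8 Müller glia markers, 5 had a log2 fold change below 0 and 3 above, namely Slc1a3, Aqp4 and Kcnj10. Pericyte and smooth muscle markers summed to 331 to 395 CPM and 223 to 372 CPM, bipolar markers to 1151 to 1267 CPM and 936 to 1087 CPM, microglial markers to 55.6 to 113 CPM and 31.6 to 62.4 CPM, and cone markers to 27.3 to 36.4 CPM and 38.8 to 52.5 CPM. Most of the pericyte and smooth muscle sum was Rgs5, at means of 273 and 292 CPM. In that list 4 of 5 log2 fold changes were below 0, with a median of -1.52. Among the cone markers 3 were above 0 and 2 below, and Gnat2 went from a mean of 6.89 to 18.0 CPM. Retinal pigment epithelium markers stayed between 3.39 and 6.57 CPM, and Rpe65 was too low to be tested. No listed marker was at 0 in every library. The part of these shifts in the results was not tested.

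All 10 genes passed the filter on low counts and were tested among 21061 genes. Mpp4 and Crb1 rose at 25 mM at a false discovery rate (FDR) under 0.05, which makes 2 of 10 called, beside 1.98% of all genes tested (1.47% higher and 0.513% lower at 25 mM). At an FDR under 0.01 with a fold change over 2, the thresholds the study states, 0 of 10 and 0% of all genes were called by edgeR, while 6 of 10 had an unadjusted p under 0.05, beside 28.7% of all genes, and DESeq2 called 2 of 10 at the stricter thresholds, beside 6.59% of all genes. In the same 6 genes the replicates did not overlap between concentrations, beside 31.8% of all genes. Of these 6, Crb1, Crb2, Mpp4, Patj and Lin7b were higher at 25 mM, beside 16.0% of all genes, and Tjp1 was lower, beside 15.8%. The remaining 4, Mpp3, Mpp5, Lin7a and Lin7c, overlapped. The median log2 fold change of the 10 genes was 0.50, beside -0.01 for all genes tested, and it was 0.87 in batch 1 and 0.41 in batch 2.

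**Figure D1:**
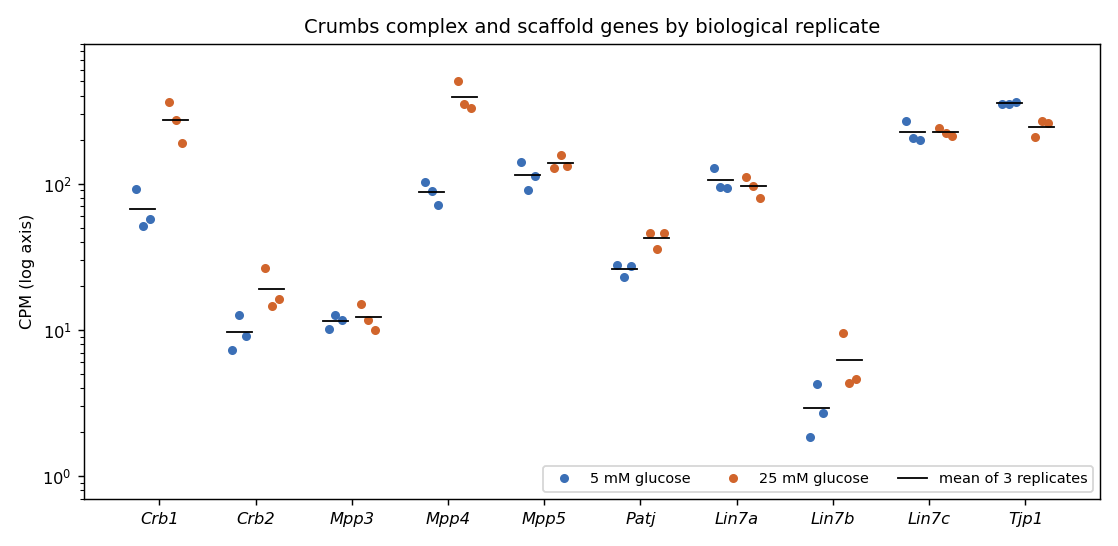
CPM (log axis) of the 10 genes in each of 3 biological replicates at 5 mM (blue) and 25 mM glucose (orange), with libraries of a replicate summed and the mean as a bar. Mpp4 and Crb1 are separated most, with 70.9 to 102.6 against 328.0 to 501.8 CPM for Mpp4, and Lin7c lies at about the same level in both groups.

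RefSeq promoters, which reach from 250 bases before to 50 after a start site on GRCm38.p6, were matched for 8 of the 10 genes, with Mpp3 and Mpp5 not matched. The sequences of Mpp4 and Crb1 are shown because both genes rose at 25 mM. Each is written 5′ to 3′ along its gene, on the minus strand of chromosome 1, and capitals mark a match to a searched motif. The Mpp4 window is chr1:59161587-59161886 and holds the start of Mpp4-202, its main coding transcript. The Crb1 window is chr1:139377027-139377326 and holds the start shared by Crb1-201 and Crb1-204.
Mpp4: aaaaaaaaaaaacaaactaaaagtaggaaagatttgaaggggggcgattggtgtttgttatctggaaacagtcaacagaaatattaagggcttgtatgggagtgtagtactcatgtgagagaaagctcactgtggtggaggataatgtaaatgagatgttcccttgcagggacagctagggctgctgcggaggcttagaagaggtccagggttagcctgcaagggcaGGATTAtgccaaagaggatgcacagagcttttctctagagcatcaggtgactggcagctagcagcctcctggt
Crb1: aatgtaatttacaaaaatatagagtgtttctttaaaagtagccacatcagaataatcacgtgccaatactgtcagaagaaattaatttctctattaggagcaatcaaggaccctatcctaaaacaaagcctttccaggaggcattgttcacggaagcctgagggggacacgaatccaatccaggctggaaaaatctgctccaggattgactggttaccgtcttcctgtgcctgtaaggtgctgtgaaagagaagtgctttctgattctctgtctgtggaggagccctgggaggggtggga
The searches were for TAATCC or its reverse complement GGATTA, the core bound by the photoreceptor factors Crx and Otx, and for TGCTGA or its reverse complement TCAGCA, a short site of the rod factor Nrl. The Mpp4 window held 1 Crx/Otx core, which began 23 bases before the start site, and no Nrl short site. The Crb1 window held neither run of letters. A second RefSeq promoter of Mpp4, at the start of the longer coding transcript Mpp4-203, held 1 Nrl short site that began 129 bases before the start. Among 12 promoters of the 8 genes, 1 held the Crx/Otx core and 4 held the Nrl short site, beside 7.06% and 19.5% of all 32851 promoters of the same length. These are letter matches only.

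Mpp4 is a scaffold known from photoreceptor terminals, where it binds the plasma membrane calcium pump and Psd95. The gene (ENSMUSG00000079550) lies on chromosome 1 of GRCm38 from 59120935 to 59163389 on the minus strand. Its level was 102.6, 88.8 and 70.9 CPM in replicates 1, 2 and 3 at 5 mM, and 501.8, 350.4 and 328.0 CPM at 25 mM. Every 25 mM replicate was above every 5 mM replicate. The means were 87.4 ± 15.9 and 393 ± 94.5 CPM (SD, n = 3), a 4.50-fold rise with a log2 fold change of 2.17 ± 0.23 (SE) and an FDR of 0.0217 by edgeR's quasi-likelihood test with Benjamini-Hochberg adjustment. The study named Mpp4 from these same samples, among genes that passed its stricter thresholds, so the call is not independent evidence. The main edgeR fit did not call Mpp4 at those thresholds, so it did not reproduce that part of the study's result. DESeq2 and some other alternatives, given below, did call Mpp4 there. The reason for this difference from the study was not tested. In bulk tissue, fewer cells of a type and less RNA per cell cannot be told apart, for Mpp4 and for every gene that follows.

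The libraries of a replicate often differed in Mpp4. At 5 mM the first and second libraries held 65.4 and 150.5 CPM in replicate 1, 69.4 and 112.5 in replicate 2, and 66.8 and 73.8 in replicate 3. At 25 mM they held 334.9 and 699.2, 689.9 and 162.6, and 324.7 and 326.6 CPM. The lowest 25 mM library, the second of replicate 2, was close to the highest 5 mM library, the second of replicate 1. Batch 1 gave a log2 fold change of 2.71 (FDR 0.00758) and batch 2 one of 1.80 (FDR 0.392), where edgeR called 0 of 18811 genes and 2203 had an unadjusted p under 0.05. Leaving out 1 biological replicate ended the call of Mpp4 for 5 mM replicate 2 (FDR 0.109), 5 mM replicate 3 (0.159), 25 mM replicate 1 (0.113) and 25 mM replicate 2 (0.101), and so did leaving out the first library of 25 mM replicate 2 (0.129), with the log2 fold change at 1.93 to 2.26 throughout. In each of these omission fits edgeR called 0% of all genes tested. The unadjusted p of Mpp4 by edgeR was 3.3e-05 to 9.8e-05 without 1 of those replicates and 0.00078 without that library. Exons of Mpp4 overlap those of G730003C15Rik on the opposite strand, so a part of its counts is uncertain.

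Crb1 encodes the Crumbs protein that is altered in CRB1 retinopathies. It (ENSMUSG00000063681) lies on chromosome 1 from 139197056 to 139377100 on the minus strand, with no exon shared with another gene. It was at 92.0, 51.6 and 56.9 CPM at 5 mM and at 360.3, 271.6 and 189.4 CPM at 25 mM. Here too the groups did not overlap, with 5 mM replicate 1 the highest of its group and 25 mM replicate 3 the lowest. Means of 66.9 ± 22.0 and 273.8 ± 85.5 CPM (SD, n = 3) gave a 4.09-fold rise, a log2 fold change of 2.03 ± 0.31 (SE) and an FDR of 0.0308 by edgeR.

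The libraries of a replicate differed in Crb1 as well, at 25 mM in the same replicates as in Mpp4. The first and second libraries at 25 mM held 207.8 and 535.8 CPM in replicate 1, 519.8 and 134.9 in replicate 2, and 183.8 and 191.7 in replicate 3. At 5 mM they held 62.1 and 130.1, 52.3 and 49.9, and 36.4 and 75.2 CPM, so replicate 2 was even here and uneven in Mpp4, and replicate 3 the reverse. The lowest 25 mM library, 134.9 CPM, stood just above the highest 5 mM library, 130.1 CPM. Crb1 had a log2 fold change of 2.56 in batch 1 (FDR 0.0103) and 1.73 in batch 2 (FDR 0.395). Its call was also lost without 5 mM replicate 2 (FDR 0.128), 5 mM replicate 3 (0.159), 25 mM replicate 1 (0.119) or 25 mM replicate 2 (0.113), and without the first library of 25 mM replicate 2 (0.129). In those omission fits edgeR called 0% of all genes, and its unadjusted p for Crb1 was 0.00050 to 0.0014.

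Against the mean log2 CPM of the 7 rod markers in the same replicate, Mpp4 lay at -0.85, -1.12 and -1.37 at 5 mM and at -0.28, -0.48 and -0.47 at 25 mM. The groups did not overlap, and the difference of 0.70 had p = 0.1 in a two-sided exact permutation test, the smallest value that 3 against 3 replicates allow. It was 1.14 in batch 1 and 0.26 in batch 2, where the groups overlapped. Crb1 on this scale lay at -1.01, -1.91 and -1.69 at 5 mM and at -0.76, -0.85 and -1.26 at 25 mM. Its groups overlapped, and the difference was 0.58 (exact permutation p = 0.2), with 0.96 in batch 1 and 0.24 in batch 2. The rod marker mean included Rp1, whose log2 fold change was 3.44. The other rod markers ranged from 0.45 for Gnat1 to 1.65 for Pde6b. Differences against the rod markers without Rp1 were not computed for any gene, so these values depend on its inclusion.

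The genes whose centred log2 CPM over the 12 libraries lay closest to that of Mpp4, among 10621 genes with a mean of at least 10 CPM, were Abca4, Grk1, Rgs9, Glb1l2 and Rpgrip1. Abca4 is the retinoid transporter of outer segment discs, Grk1 a kinase of the phototransduction cascade, Rgs9 a GTPase activator of the same cascade and Rpgrip1 a protein of the connecting cilium. Their root-mean-square differences from Mpp4 were 0.126, 0.13, 0.153, 0.165 and 0.167 on the log2 scale, beside a median of 1.29 for all genes compared. For Crb1 the closest were Zdhhc2, Arl6, Ahrr, Kcnv2 and Grk1, at 0.225, 0.228, 0.267, 0.27 and 0.275, beside a median of 1.28. Kcnv2 is a potassium channel subunit of photoreceptors and Arl6 a small GTPase of the ciliary transport machinery. The 12 libraries share sources and depth, so these distances are a description.

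**Figure D2:**
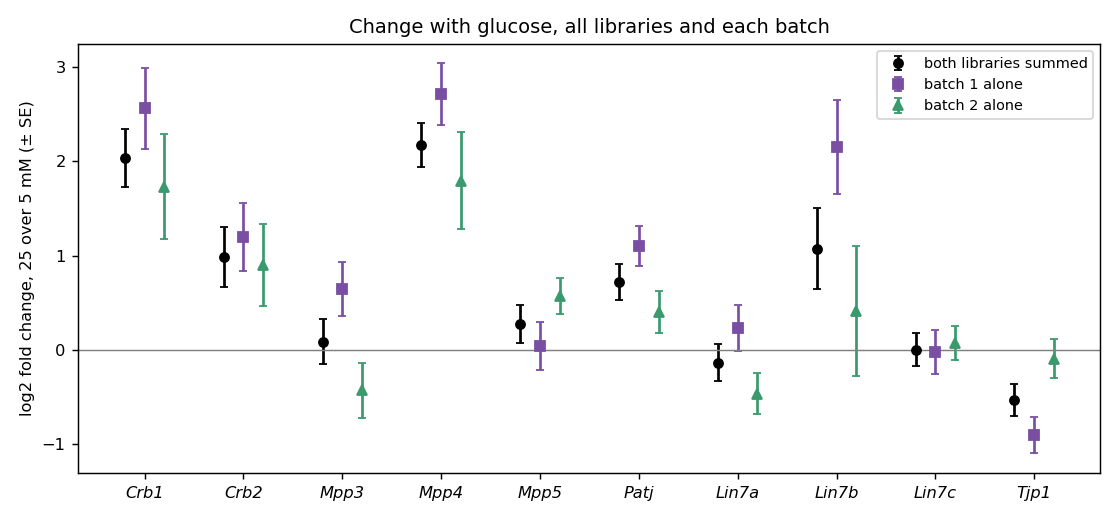
Log2 fold change of 25 mM over 5 mM glucose with its SE for each of the 10 genes, from all libraries summed per replicate (black circles), batch 1 alone (purple squares) and batch 2 alone (green triangles), 3 replicates per group in each. Mpp4 and Crb1 are above 1.7 in all 3 fits, whereas Tjp1 is at -0.90 in batch 1 and -0.09 in batch 2.

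Crb2, the second Crumbs protein of the retina, is encoded on chromosome 2 from 37776249 to 37799103 on the plus strand (ENSMUSG00000035403). It was detected at 7.28, 12.6 and 9.04 CPM at 5 mM and 26.5, 14.5 and 16.3 CPM at 25 mM. All 25 mM replicates were higher than all 5 mM replicates, but the lowest of the former was within 2 CPM of the highest of the latter. The means were 9.64 ± 2.71 and 19.1 ± 6.47 CPM (SD, n = 3), with a log2 fold change of 0.99 ± 0.32 (SE) that missed the threshold (FDR 0.0977). The libraries of 25 mM replicate 2 disagreed, at 25.2 and 8.65 CPM, the second falling among the 5 mM libraries. On the log2 scale, batch 1 gave 1.20 and batch 2 gave 0.90. Relative to the rod markers with Rp1 included, Crb2 overlapped between groups, with a difference of -0.49 (exact permutation p = 0.2). That difference was -0.24 in batch 1 and, without overlap, -0.64 in batch 2. Its exons overlap those of Dennd1a on the opposite strand.

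Mpp5, the Pals1 scaffold at the core of the complex, is on chromosome 12 from 78748907 to 78840714 on the plus strand (ENSMUSG00000021112). Its replicates held 139.9, 89.9 and 113.3 CPM at 5 mM and 127.9, 155.9 and 131.3 CPM at 25 mM. The groups overlapped, and the log2 fold change of 0.28 ± 0.20 (SE) missed the threshold (FDR 0.376). It was 0.04 in batch 1 and 0.57 in batch 2.

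Patj, whose PDZ domains link Pals1 to further partners, is on chromosome 4 from 98395785 to 98719603 on the plus strand (ENSMUSG00000061859). It was measured at 27.6, 23.1 and 27.2 CPM at 5 mM and 46.3, 35.8 and 46.1 CPM at 25 mM. The groups did not overlap, with little spread at 5 mM. Means of 26.0 ± 2.48 and 42.7 ± 6.02 CPM (SD, n = 3) gave a log2 fold change of 0.72 ± 0.19 (SE) at an FDR of 0.0710, outside the threshold. Batch 1 gave 1.10 (FDR 0.0138) and batch 2 gave 0.40 (FDR 0.471). Against the rod marker mean, which included the strongly raised Rp1, the order was turned. On that scale Patj was at -2.74, -3.07 and -2.76 at 5 mM and at -3.72, -3.78 and -3.30 at 25 mM. The difference was -0.74 with no overlap (exact permutation p = 0.1), and its size without Rp1 was not computed. That difference was -0.38 in batch 1, where the groups overlapped, and -0.98 in batch 2.

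Mpp3, a scaffold that joins the Crumbs complex at the outer limiting membrane, is on chromosome 11 from 101999652 to 102028461 on the minus strand (ENSMUSG00000052373). It was at 10.1, 12.7 and 11.8 CPM at 5 mM and 15.1, 11.7 and 9.95 CPM at 25 mM. The higher group held both the highest and the lowest replicate. Its log2 fold change of 0.09 ± 0.24 (SE, FDR 0.831) was made of 0.64 in batch 1 and -0.43 in batch 2.

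The Lin7 adaptors, which bind Pals1 through L27 domains and carry a PDZ domain, differed in level. Lin7c (ENSMUSG00000027162, chromosome 2, 109890853 to 109901003, plus strand) held 269.0, 204.0 and 199.6 CPM at 5 mM and 238.6, 223.5 and 211.7 CPM at 25 mM. These ranges lay within each other, with a log2 fold change of 0.00 ± 0.18 (SE, FDR 0.995). Lin7a (ENSMUSG00000019906, chromosome 10, 107271686 to 107421474, plus strand) held 127.7, 95.4 and 92.7 CPM at 5 mM and 110.6, 96.7 and 80.2 CPM at 25 mM. It overlapped as well, at -0.14 ± 0.20 (SE, FDR 0.668), with 0.23 in batch 1 and -0.46 in batch 2. Lin7b (ENSMUSG00000003872, chromosome 7, 45367891 to 45370583, minus strand) was the least abundant, at 1.86, 4.28 and 2.70 CPM at 5 mM and 9.60, 4.35 and 4.64 CPM at 25 mM. The groups did not overlap only because the highest 5 mM replicate was just under the lowest 25 mM replicate. Its log2 fold change of 1.07 ± 0.43 (SE) missed the threshold (FDR 0.147) and was 2.15 in batch 1 and 0.41 in batch 2. Exons of Lin7b overlap those of Gm45619 and Mtag2 on the opposite strand.

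Tjp1, or ZO-1, couples junction proteins to actin, and its gene is on chromosome 7 from 65296165 to 65527781 on the minus strand (ENSMUSG00000030516). It had 352.4, 349.0 and 361.8 CPM at 5 mM and 207.6, 266.4 and 260.8 CPM at 25 mM. The 5 mM replicates were close together and all above the 25 mM replicates, with means of 354 ± 6.61 and 245 ± 32.5 CPM (SD, n = 3). The log2 fold change of -0.53 ± 0.17 (SE) missed the threshold (FDR 0.0955). Batch 1 gave -0.90 (FDR 0.0191) and batch 2 gave -0.09 (FDR 0.850). The first libraries at 5 mM held 390.6, 414.7 and 421.3 CPM and the second 286.8, 259.1 and 303.0 CPM, so the level at 5 mM differed between batches. At 25 mM the 6 libraries lay between 204.5 and 305.1 CPM, and the highest of them, the second of replicate 2, was above the second libraries at 5 mM.

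Levels of different genes were compared as CPM per kb, the CPM divided by the gene's mean transcript length weighted by the estimated transcript counts. At 5 mM the order was led by Tjp1 at 56.8 ± 1.14 CPM per kb, Lin7c at 54.8 ± 8.55 and Lin7a at 46.5 ± 7.58 (SD, n = 3), which overlapped with their neighbours. Mpp4 at 34.3 ± 5.36, Mpp5 at 21.6 ± 4.69 and Crb1 at 11.8 ± 3.99 CPM per kb followed without overlap between neighbours. Patj at 4.66, Lin7b at 4.46 and Mpp3 at 3.86 CPM per kb overlapped in sequence, and Crb2 was lowest at 1.53. At 25 mM, Mpp4 led at 143 ± 33.0 CPM per kb, above the next gene in every replicate. Lin7c at 54.2 ± 2.81, Crb1 at 48.8 ± 15.2, Lin7a at 41.6 and Tjp1 at 39.4 CPM per kb overlapped in sequence, and Tjp1 was above Mpp5 in every replicate. Mpp5 at 26.1 CPM per kb came next, then Lin7b at 9.34 and Patj at 8.0, which overlapped, and Mpp3 at 3.99 and Crb2 at 3.05, which overlapped too.

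**Figure D3:**
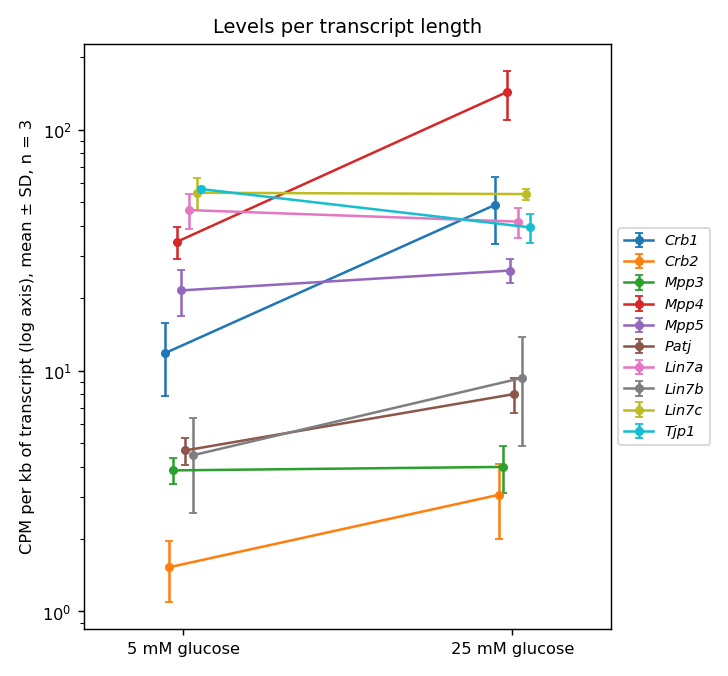
CPM per kb of transcript (log axis) of the 10 genes at 5 mM and 25 mM glucose, as mean ± SD of 3 biological replicates, with a line joining the 2 means of a gene. Mpp4 goes from 34.3 to 143 and passes Tjp1, Lin7c and Lin7a, and Crb1 goes from 11.8 to 48.8.

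Transcript counts were analysed next, because the isoforms of Crb1 differ in their ends. Of 65 transcripts of the 10 genes, 47 were tested and 0 were called by edgeR, as were 0% of the 64990 transcripts tested in all. The lowest FDR was 0.192, and 17 of the 47 had an unadjusted p under 0.05, beside 16.4% of all transcripts, with 14 higher and 3 lower at 25 mM. These counts are estimates that divide reads among overlapping transcripts, so each isoform value carries that error as well.

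Crb1-204 and Crb1-201 begin 23 bases apart, but Crb1-204 has 10 exons and ends 32.5 kb before Crb1-201, which has 12. Their coding sequences are 3942 and 4215 bases long. Crb1-204 took 70.1% of the gene's transcript counts and was at 60.6, 29.6 and 30.2 CPM at 5 mM and 262.2, 199.1 and 133.3 CPM at 25 mM. Its log2 fold change was 2.30 ± 0.39 (SE), higher in all 25 mM replicates, without a call (FDR 0.192). Crb1-201 was at 16.7, 17.3 and 15.9 CPM at 5 mM and 20.7, 18.2 and 15.6 CPM at 25 mM, with overlapping groups and a log2 fold change of 0.13 ± 0.20 (SE, FDR 0.766). Crb1-205, a short retained-intron transcript inside the gene, averaged 9.88 CPM at 5 mM against 52.5 CPM at 25 mM (log2 fold change 2.41 ± 0.52, FDR 0.207).

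The share of Crb1-201 in the gene's transcript counts was 17.5, 31.6 and 29.6% at 5 mM and 5.84, 6.70 and 8.41% at 25 mM. That of Crb1-204 was 63.5, 54.1 and 56.3% at 5 mM and 73.9, 73.3 and 71.8% at 25 mM. Neither share overlapped between groups. The log2 ratio of Crb1-204 to Crb1-201 was 1.86, 0.78 and 0.93 at 5 mM and 3.66, 3.45 and 3.09 at 25 mM, a difference of 2.21 with exact permutation p = 0.1, the smallest possible. This difference was 2.43 in batch 1 and 1.77 in batch 2, without overlap in either.

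Mpp4 was spread over a coding transcript and several that are annotated as non-coding. Mpp4-202, the coding transcript with 43.4% of the counts, had 57.5, 57.6 and 42.9 CPM at 5 mM and 184.9, 125.5 and 157.5 CPM at 25 mM, a log2 fold change of 1.56 ± 0.22 (SE, FDR 0.192). Mpp4-207, a retained-intron transcript, had 11.3, 8.16 and 4.35 CPM at 5 mM and 124.8, 88.5 and 54.6 CPM at 25 mM, at 3.49 ± 0.47 (SE, FDR 0.192). Both were separated between groups, and the retained-intron transcript was separated by more. Mpp4-206, a processed transcript, and Mpp4-209, another with a retained intron, had log2 fold changes of 2.68 and 2.88. The share of Mpp4-202 was 60.9 ± 6.80% at 5 mM and 39.7 ± 7.31% at 25 mM, and that of Mpp4-207 was 8.76 ± 2.13% and 21.9 ± 4.52% (SD, n = 3). The batches differed in this: the share difference of Mpp4-202 was -33.1 percentage points in batch 1 and -8.67 in batch 2, and that of Mpp4-207 was 19.3 and 5.21 points higher, with overlapping groups in batch 2 (exact permutation p = 0.4 for both).

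The log2 ratio of all retained-intron to all coding counts of Mpp4 was -1.16, -1.89 and -2.59 at 5 mM and 0.11, 0.16 and -0.70 at 25 mM. The groups did not overlap, with a difference of 1.74 (exact permutation p = 0.1), which was 2.89 in batch 1 and, with overlap, 0.73 in batch 2. The ratio could be formed for 7 of the 10 genes. For Crb1 the difference was 0.61 and for Tjp1 0.75, both without overlap. Within batches Crb1 was at 0.50 in batch 1 and 0.55 in batch 2, with overlap in each. Tjp1 was at 1.69 in batch 1 and, with overlap, -0.15 in batch 2. Mpp3 at 0.56, Mpp5 at 0.61, Lin7b at 1.16 and Lin7c at -0.82 overlapped. Over the 7046 genes with at least 60 counts of each kind of transcript the median difference was 0.534, 84.3% were above 0 and 34.6% did not overlap. A difference as high as that of Mpp4 was found in 3.82% of these genes and one as high as that of Crb1 in 44.7%.

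Among the other genes, the shares of some Mpp3 transcripts were separated between groups with libraries summed, although the gene's total overlapped. Mpp3-201, a coding transcript, took 24.9, 52.4 and 48.5% of the transcript counts at 5 mM and 17.9, 16.2 and 14.6% at 25 mM, and its log2 fold change was -1.33 ± 0.43 (SE, FDR 0.244). Mpp3-208 and Mpp3-206, both without an annotated coding sequence, took 8.04 and 6.42 percentage points more at 25 mM, without overlap. In batches 1 and 2 these differences were 5.51 and 10.9 points for Mpp3-208 and 9.43 and 3.48 points for Mpp3-206. The groups overlapped for Mpp3-208 in batch 1 and for Mpp3-206 in batch 2 (exact permutation p = 0.3 and 0.4). For Mpp3-201 the share difference was -24.6 points in batch 1 and -29.3 in batch 2, with overlap in both (exact permutation p = 0.2). The share of the coding transcript Mpp3-204 overlapped. Of the 21 shares examined in the 10 genes, 8 did not overlap between groups, beside 17.3% of 24795 such shares over all genes tested, and all 8 belonged to Crb1, Mpp3 and Mpp4. In Mpp5 the counts were split about evenly between the coding Mpp5-201, with 46.6% at 5 mM and 45.7% at 25 mM, and Mpp5-204, annotated for nonsense-mediated decay, with 51.3% and 51.9%. Patj-202 and Patj-205, Lin7a-201 and Lin7a-202, Lin7b-201 and Lin7b-202, and Tjp1-201 and Tjp1-202 had overlapping shares. Tjp1-201 had a log2 fold change of -0.81 ± 0.21 (FDR 0.219) and Tjp1-202 of -0.59 ± 0.20 (FDR 0.254). Crb2 and Lin7c each had a single transcript above 10% of the counts, with log2 fold changes of 0.80 for Crb2-201 and 0.08 for Lin7c-201.

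**Figure D4:**
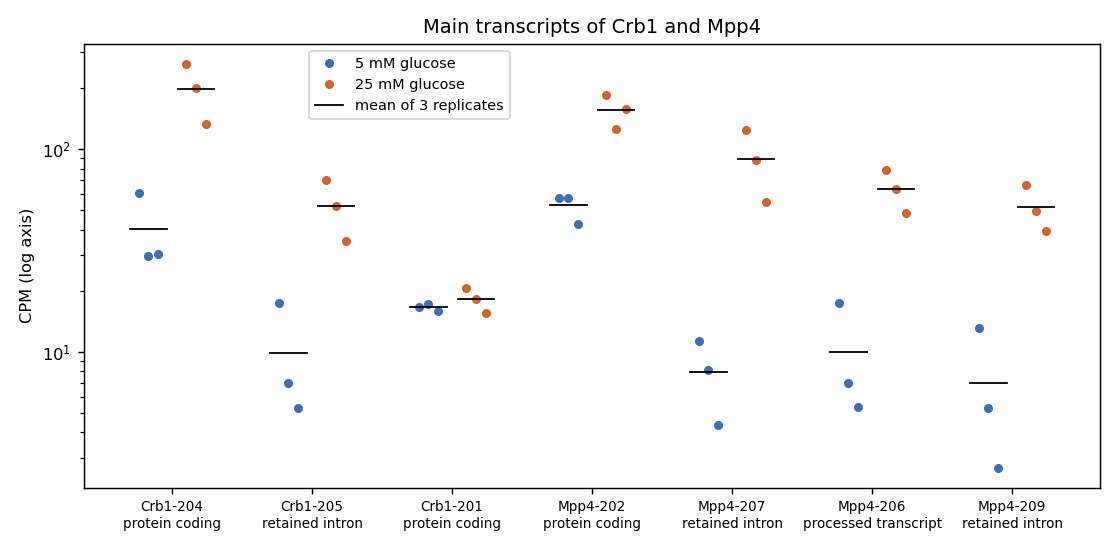
CPM (log axis) of the transcripts of Crb1 and Mpp4 that hold at least 10% of the gene's transcript counts, in 3 replicates at 5 mM (blue) and 25 mM glucose (orange) with the mean as a bar. Crb1-201 stays near 17 CPM while Crb1-204 goes from a mean of 40.2 to 198 CPM, and Mpp4-207 goes from 7.93 to 89.3 CPM.

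Related genes were described by lists. Of 13 further scaffold partners, 0 were called by edgeR and 6 had an unadjusted p under 0.05, beside 28.7% of all genes. Of these 6, 4 were higher and 2 lower, and the median log2 fold change of the list was 0.02. The highest were Crb3, the small Crumbs protein of epithelia, at 1.24 (FDR 0.109) and a mean under 1 CPM, and the scaffold Mpp7, at 1.08 (FDR 0.0520). Mpp7 had 55.5, 35.1 and 38.2 CPM at 5 mM and 104.0, 93.0 and 75.5 CPM at 25 mM, so that its groups did not overlap. The lowest were Mpp2 at -1.04 (FDR 0.0705) and Tjp3 at -0.63 (FDR 0.390).

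The list of Par and Scribble polarity genes held 13 tested genes with 0 called by edgeR. Of these, 1 had an unadjusted p under 0.05, beside 28.7% of all genes, and the median was -0.23. The highest log2 fold changes were those of Pard6b at 0.41 and Prkcz at 0.31, and the lowest those of Pard6g at -0.67 (FDR 0.135) and Llgl1 at -0.67. The adherens and tight junction list held 14 tested genes with 0 called by edgeR, of which 8 had an unadjusted p under 0.05, all lower at 25 mM, beside 28.7% of all genes in either direction. Its median was -0.41, with 14 of 14 below 0, or 13 of 14 when counts were scaled by library totals, corrected for GC content and length or taken without 25 mM replicate 1, and 12 of 14 without 5 mM replicate 1. In batch 1 alone 12 of 14 were below 0, with a median of -0.92, and in batch 2 alone 11 of 14, with a median of -0.26. Jup, plakoglobin, was lowest at -1.85 (FDR 0.0737), followed by Nectin2 at -1.31 (FDR 0.0857), while the junctional adhesion molecules Jam3 and Jam2 were at -0.06 and -0.09. The summed CPM of this list was 2551 to 2626 at 5 mM and 1460 to 2029 at 25 mM. The vascular endothelium markers, which share junction proteins, had 6 of 7 genes at an unadjusted p under 0.05, beside 28.7% of all genes. Their median was -1.38, which was -2.64 in batch 1 and -0.38 in batch 2. The Müller glia markers had a median of -0.34, with -0.54 in batch 1, -0.03 in batch 2, -0.18 without 25 mM replicate 1 and -0.20 without the first library of 25 mM replicate 2. With all libraries summed, 3 of the 8 Müller glia markers were above 0.

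Of 7 partners of Mpp4 and the photoreceptor terminal, 2 rose with an FDR under 0.05, beside 1.47% of all genes. Cacna1f, the calcium channel subunit of the photoreceptor synapse, had 52.2, 36.0 and 34.2 CPM at 5 mM and 166.0, 107.4 and 91.9 CPM at 25 mM, a log2 fold change of 1.58 ± 0.27 (SE) with FDR 0.0380. Cabp4, the calcium-binding protein that regulates this channel, had 25.5, 30.4 and 29.7 CPM at 5 mM and 60.5, 57.9 and 59.8 CPM at 25 mM, at 1.06 ± 0.16 (SE) with FDR 0.0308. Neither gene overlapped between groups. The active zone scaffold Bsn was at -0.64 (FDR 0.172) and Dlg2 at 0.03. The list's median was 0.17. For comparison, 5 of the 7 rod markers were called, with a median of 1.13, and 1 of 5 cone markers, with a median of 0.26, beside 1.98% of all genes called. The calls of Cacna1f and Cabp4 ended under the same omissions of 1 replicate or library as those of Mpp4 and Crb1, where edgeR called 0% of all genes.

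**Figure D5:**
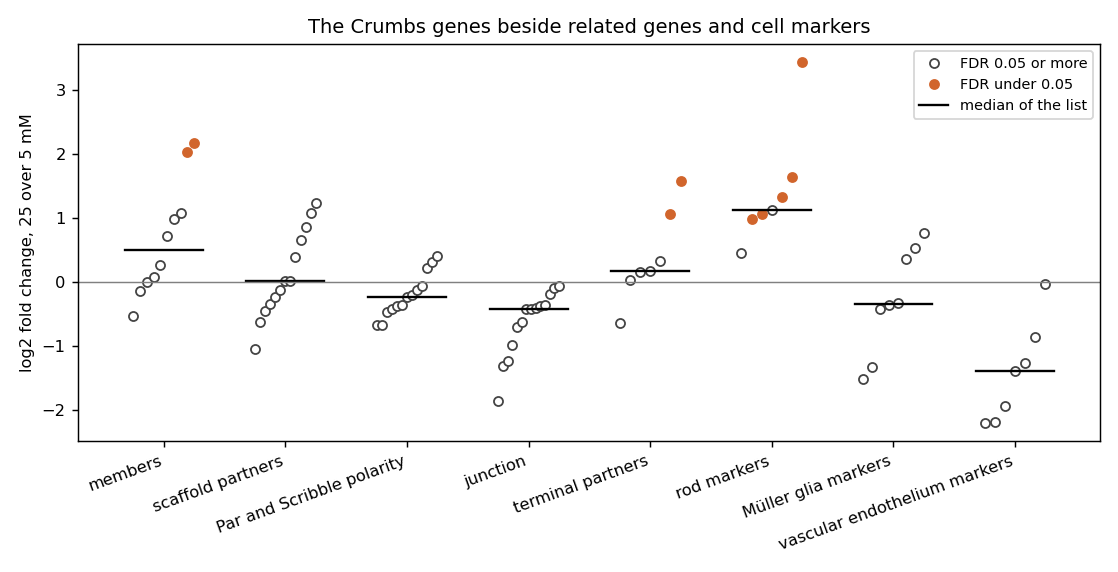
Log2 fold change of 25 mM over 5 mM glucose for each tested gene, grouped as the 10 Crumbs and scaffold genes (members), related lists and 3 lists of cell markers, with filled points at an FDR under 0.05 and a bar at the list's median. The 14 junction genes lie below 0 with all libraries summed (12 of 14 in batch 1 and 11 of 14 in batch 2), and the rod markers lie above 0 with a median of 1.13.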

How the data were processed

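The members, motifs and gene lists were chosen with earlier results of these data known. RNA from whole retinal explants was measured in 12 libraries, built from total RNA with a strand-keeping kit meant for small inputs. For each gene and each transcript the authors deposited expected counts, with technical replicates in separate columns and no scaling between libraries. Other assays were not analysed here. The submitters' processing notes name GRCm38; the counting tool, its annotation and its use of strand are not given in the sources used here. Of the gene values above 0, 100% were not whole.

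Technical replicates were summed and the sums rounded. Symbols and positions came from GENCODE M21 (48714 of 53707 identifiers matched), and 0 columns were left unused. Counts were filtered with filterByExpr, normalized by TMM and tested in edgeR 4.0.16 (R 4.3.3) with the quasi-likelihood method of its version 3, 3 against 3 replicates, without a block, with Benjamini-Hochberg adjustment over all genes or transcripts. The call was an FDR under 0.05. Single ratios and shares were compared by two-sided exact permutation, for which 0.1 is the smallest p. Depth sets the counting error only, since amplified reads that carry no molecular identifiers cannot be taken as separate molecules. The main gene fit was also run on simulated counts with known changes. Those counts held no batches and no differing technical replicates, so that run does not cover these features of the data.

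Named genes were the 10 members, list genes with a call or among the 2 highest and 2 lowest fold changes of a list, the 5 genes closest to Mpp4 and to Crb1, and member transcripts with at least 10% of a gene's transcript counts. The marker and gene lists, written from general knowledge, were described by counts and medians. The results of some genes are left out of this text. Alternatives were RLE factors, library totals, DESeq2 1.42.0, limma-voom (limma 3.58.1), the newer quasi-likelihood method, other count filters, each batch alone, 12 libraries with a batch term, a replicate block, GC and length correction, summed transcript counts and each replicate left out. Added after seeing the data were 2 single libraries left out, libraries scaled to equal depth, and the unadjusted p. Tables and plots used Python 3.11.15, pandas 2.3.3 and matplotlib 3.10.9.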

Additional observations from a re-analysis of the deposited data

Results flagged for a closer look

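Among 22 groups of 6 libraries (each of the 10 genes, and the total count, at each concentration), 1 held a library far from the others, where chance gives about 1.1. It was the total of the first library of 5 mM replicate 1, 36692484 counts, with the other 5 mM libraries at 17998905 to 25003397.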

How the results depend on the processing

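The number of the 10 genes called, 2 by the main test, was 5 with DESeq2 (16.6% of all genes called) and batch 1 alone (17.3%), 4 with 12 libraries and a batch term (15.6%), 6 with GC and length correction (12.8%) and with the replicate block added (13.9%), and 6 at an unadjusted p under 0.05. It was 0 in batch 2 alone and without the first library of 25 mM replicate 2, where 0% of all genes were called. With 1 replicate left out it was 0 to 4. The 4 came without 5 mM replicate 1 (26.6% of all genes), and each 0 came where 0% of all genes were called. The fit of 12 libraries took technical replicates as separate samples, with no term for the biological replicate. Its counts, here and below, therefore overstate the number of independent samples. The stricter count, 0, became 2 with DESeq2 (6.59% of all genes), without a filter (0.783%), with GC and length correction (0.655%) and without the second library of 5 mM replicate 1 (0.267%), 1 in batch 1 (1.93%) and with 12 libraries (0.582%), and 3 with the replicate block and GC and length correction (1.89%). With 1 replicate left out the stricter count was 0 to 2, the 2 without 5 mM replicate 1 (0.492%). In the related lists 2 genes were called, beside 1.98% of all genes. That count became 11 with DESeq2 (16.6% of all genes), 9 without a filter (5.63%) and 13 in batch 1 (17.3%). It was 9 with 12 libraries (15.6%) and 6 with the replicate block (4.70%). With GC and length correction it was 12 (12.8%), and 11 with both (13.9%). Without the second library of 5 mM replicate 1 it was 6 (8.27%). It was 0 in batch 2 and without the first library of 25 mM replicate 2 (0% of all genes in each). With 1 replicate left out it was 0 to 11 (0% to 26.6% of all genes). With the replicate block alone 2 of the 10 genes were called, beside 4.70% of all genes. The labels do not say whether same-numbered replicates were paired. Deviations of same-numbered replicates correlated at -0.01, -0.45 and 0.28, and those of other pairs at -0.42 to 0.51. With 3 replicates per group these correlations cannot settle the pairing. The causes of these moves were not tested.

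Mpp4, Crb1, Crb2, Patj, Lin7b and Tjp1 kept their direction in all 23 alternatives, Mpp4 at 1.80 to 2.71 and Crb1 at 1.73 to 2.56, each called in 17. Those 17 include the fit of 12 libraries, which took technical replicates as separate samples. The fold changes near 0 turned: Mpp3 to -0.43 in batch 2, Mpp5 to -0.028 with GC and length correction and -0.027 with the replicate block added, Lin7a to 0.23 in batch 1, and Lin7c to -0.0056 with RLE factors or DESeq2, -0.013 without a filter, -0.027 in batch 1, -0.40 with GC and length correction, with or without the replicate block, and -0.049 without the second library of 5 mM replicate 1. With 1 replicate left out the range was -0.083 to 0.21 for Mpp3, -0.24 to 0.026 for Lin7a and -0.085 to 0.15 for Lin7c. The share difference of Mpp5-204 turned to -2.20 percentage points in batch 1, with a range of -1.79 to 3.08 when 1 replicate was left out, that of Mpp5-201 to 1.60 in batch 1, with -3.50 to 1.61, and that of Patj-202 to 2.02 in batch 2, with -5.09 to 0.13. No transcript of the 10 genes was called under the 11 alternatives run for transcripts.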
